A study of Mus musculus with 4 samples.

Results

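Transcripts of 9 genes that mark microglia or encode chains of the complement protein C1q were followed in the visual cortex of mice that had lost an eye: C1qa, C1qb, C1qc, Csf1r, Cx3cr1, Ctss, Aif1, Tyrobp and Laptm5. Every probe set whose annotation named one of these genes alone was taken, whatever its signal, which gave 12 of the 12488 probe sets on the array and all 9 of these genes, of 8252 genes that a probe set named alone. C1qb, Csf1r and Laptm5 had 2 probe sets each and the other 6 genes had 1. The mice were wild-type C57Bl6. Per the labels' protocols, 5 of them were raised in the dark from birth, had 1 eye removed on postnatal day 42, then lived under a light-dark cycle for 4 days before being killed, aged 46 days. Both groups come from these mice and share the dark rearing, the operation and the first exposure to light. The deprived group is the visual cortex contralateral to the removed eye and the non-deprived group the cortex ipsilateral to it. The series' design text describes 2 pooled samples per side, so each group had 2 arrays, and the sources used here do not say how the 5 mice were spread over the pools. The p-values therefore measure the spread between these 4 arrays, which may be partly technical.

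Microglia are the resident macrophages of the brain. C1q is built from the products of C1qa, C1qb and C1qc and starts the classical complement pathway, in which C3 is deposited on a surface and recognised by complement receptors on phagocytes. In the developing visual system, C1q and microglia are known for taking part in the removal of synapses. Csf1r is the receptor that microglia need to survive, Cx3cr1 binds the neuronal chemokine fractalkine, Tyrobp is the signalling adaptor of Trem2 and related receptors, Ctss is a lysosomal protease, Laptm5 a lysosomal membrane protein of blood-derived and microglial cells, and Aif1 the actin-binding protein also called Iba1. The comparison asked whether transcripts of these cells differ between the hemisphere whose main input was removed and the one that kept it.

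None of the 11 member probe sets bright enough to test was called different between the groups. C1qa, Ctss and the brighter probe sets of Csf1r and Laptm5 had signals between 933.2 and 1602.2 on all 4 arrays, and their groups differed by at most 1.12-fold in the fit. C1qc, with the highest mean signal of the members, had signals between 1045.3 and 1660.4 and was 1.24-fold lower in the deprived cortex. Over the 8 member genes that could be tested, at their brightest probe set, 4 were lower and 4 higher in the deprived cortex, and the median of their log2 fold changes was -0.012. Among all 5649 genes tested, 49.2% were lower, with 0.006 as the median. In limma, 0 of the 11 probe sets passed an adjusted p of 0.05, where 0.107% of all 7458 tested probe sets passed, and 1, which was lower, had an unadjusted p under 0.05, where 3.66% of all tested probe sets were lower at that level and 5.43% differed in either direction. Fold changes are on the log2(signal + 60.6) scale, and probe sets with a mean signal under 142.9 were not tested. In such bulk tissue, fewer cells of a type and less RNA per cell cannot be told apart.

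**Figure D1:**
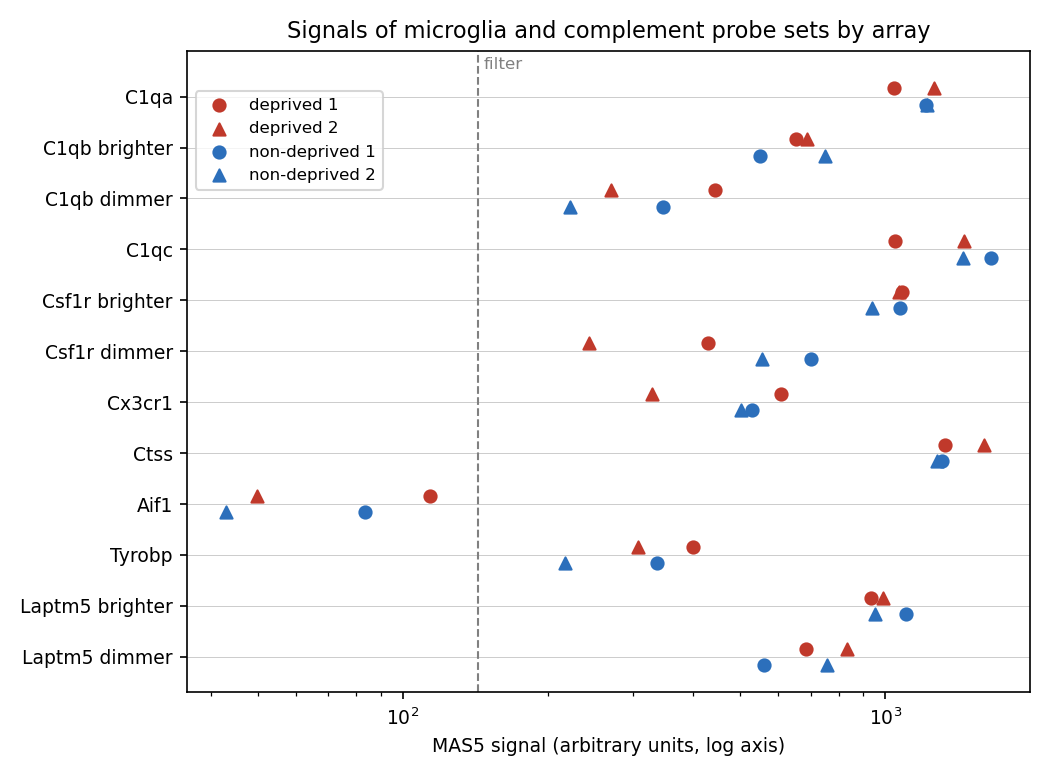
MAS5 signal (horizontal log axis, arbitrary units) of the 12 microglia and complement probe sets on each of the 4 arrays; red marks deprived and blue non-deprived cortex, circles array 1 and triangles array 2, and the dashed line the filter at 142.9. The colours overlap for 10 of the 12 probe sets, and all 4 points of Aif1 lie left of the filter.

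Values of a group are given in the order array 1, array 2. Of the array-wide quality values, the median signals and correlations overlapped between groups, while a sign of RNA integrity did not. The median signal of an array lay between 189.9 and 245.6, and the mean correlation of an array with the other 3 was lowest for deprived array 1, at 0.91. The ratio of 5′ to 3′ signal, a sign of RNA integrity, was 0.544 and 0.463 for actin on the deprived arrays and 0.638 and 0.632 on the non-deprived ones. For Gapdh the ratio was 0.745 and 0.689 on the deprived arrays and 0.875 and 1.07 on the non-deprived ones. The part of RNA integrity in any difference given here was not tested. All 13 neuron markers and all 10 astrocyte markers that a probe set named alone were bright enough to test. This is a limit on mean signal and not a detection call.

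The 3 chains of C1q came from neighbouring genes in the GRCm38.p6 RefSeq table and were all well above the filter. C1qa, the A chain, had signals of 1044.3 (array 1) and 1260.3 (array 2) in the deprived group, against 1215.5 (array 1) and 1219.7 (array 2) in the non-deprived group. The deprived arrays lay on either side of the non-deprived ones, which were nearly equal. The log2 fold change of C1qa was -0.081 ± 0.19 (SE), with a 95% interval from -0.49 to 0.33 and an adjusted p of 0.999. As a multiple of the non-deprived level this interval runs from 0.712 to 1.25.

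C1qb, the B chain, had signals of 652.4 and 689.6 on the deprived arrays and 549.3 and 749.5 on the non-deprived arrays at its brighter probe set. The deprived values fell inside the non-deprived range. Its log2 fold change was 0.057 ± 0.23 (SE), with an interval from -0.45 to 0.57. The dimmer C1qb probe set gave 443.9 and 269.4 on the deprived and 346.4 and 221.9 on the non-deprived arrays. Array 1 was higher than array 2 in both groups and the groups overlapped, while in both same-numbered pairs the deprived array was the higher one, by 0.31 and 0.22 (log2). Its log2 fold change was 0.27 ± 0.36 (SE), and the upper bound of its interval reached 2.07 times the non-deprived level.

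C1qc, the C chain, differed most among the 3. Its signals were 1045.3 (array 1) and 1454.6 (array 2) in the deprived group, against 1660.4 (array 1) and 1447.4 (array 2) in the non-deprived group. Only deprived array 1 was clearly low, and deprived array 2 was level with non-deprived array 2. The log2 fold change of C1qc was -0.32 ± 0.20 (SE), a 1.24-fold lower level, with an interval from -0.75 to 0.12 and an adjusted p of 0.991. It was -0.089 without deprived array 1 and -0.54 without deprived array 2, with adjusted p of 0.965 and 0.255 in limma. The 3 chains thus gave fold changes of both signs, and no chain was called.

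Csf1r, the receptor tyrosine kinase for Csf1 and Il34, had 2 probe sets that did not behave alike. At the brighter one the signals were 1084.6 and 1068.3 on the deprived and 1073.6 and 936.6 on the non-deprived arrays. Non-deprived array 2 was the lowest, the other 3 arrays lay close together, and the groups overlapped. Its log2 fold change was 0.096 ± 0.19 (SE), with an interval from 0.803 to 1.42 times the non-deprived level.

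At the dimmer Csf1r probe set the signals were 429.6 and 243.5 on the deprived arrays and 700.6 and 555.9 on the non-deprived arrays. Both deprived arrays lay below both non-deprived arrays, and this was the only member probe set lower without overlap among the 11 tested; 17.1% of all tested probe sets were lower in that way, and 32.2% did not overlap in either direction. Deprived cortex had a mean of 336.6 ± 131.6 and non-deprived cortex one of 628.2 ± 102.3 (SD, n = 2 each). The log2 fold change was -0.83 ± 0.30 (SE), a 1.77-fold lower level, with an interval from -1.48 to -0.17. Its unadjusted p was 0.0178 and its adjusted p 0.685 in limma, so it was not called. Over the alternatives run, its adjusted p ranged from 0.0613, without deprived array 1, to 1. The letter r in its identifier is the manufacturer's mark for a set in which some probe selection rules were dropped. Probe positions were not analysed here, so it is not known whether the 2 sets read the same part of the transcript.

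**Figure D2:**
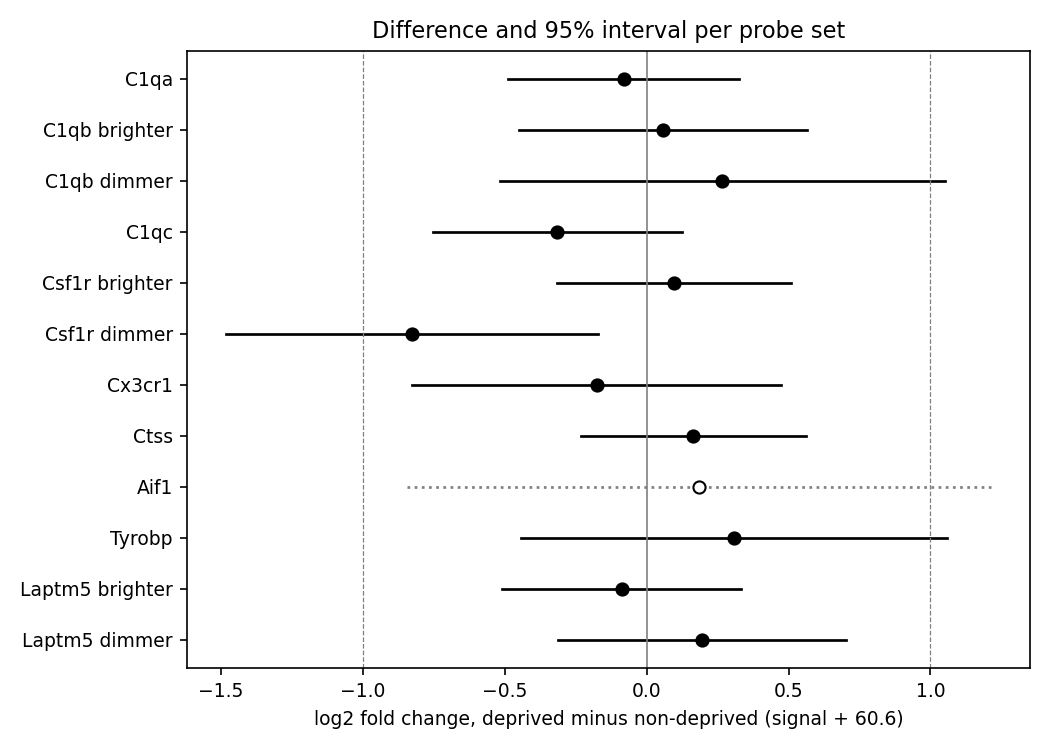
Log2 fold change of deprived against non-deprived cortex (horizontal axis) for each microglia and complement probe set, with its 95% interval from limma; dashed lines mark a 2-fold difference, and the open point is Aif1, which was too dim to test and comes from a fit without the filter. The interval of 8 of the 11 tested probe sets lies within 2-fold, and that of the dimmer Csf1r probe set alone leaves out 0.

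Cx3cr1, the fractalkine receptor, had signals of 608.7 (array 1) and 328.4 (array 2) in the deprived group, against 529 (array 1) and 502.6 (array 2) in the non-deprived group. Deprived array 1 was the highest of the 4 and deprived array 2 the lowest. The log2 fold change was -0.18 ± 0.30 (SE), with an interval from 0.564 to 1.39 times the non-deprived level. A single array decided its sign: it was 0.22 without deprived array 2 and -0.57 without deprived array 1, and neither passed.

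Tyrobp, also called DAP12, had signals of 399.3 and 307.6 on the deprived and 337 and 216.8 on the non-deprived arrays. Within each number the deprived array was the higher one, but deprived array 2 stayed below non-deprived array 1. The log2 fold change was 0.31 ± 0.34 (SE), the highest value among the tested members, with an interval from 0.736 to 2.09 times the non-deprived level and an adjusted p of 0.999. With 1 array left out it ranged from 0.050, without non-deprived array 2, to 0.57, without non-deprived array 1.

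Ctss, cathepsin S, had signals of 1330.5 and 1602.2 on the deprived and 1311.4 and 1281.6 on the non-deprived arrays. It was the only tested member probe set that was higher without overlap, and deprived array 1 exceeded non-deprived array 1 by little; 15.1% of all tested probe sets were higher in that way. The log2 fold change was 0.16 ± 0.18 (SE), a 1.12-fold higher mean, with an interval from 0.852 to 1.47 times the non-deprived level. The adjusted p was 0.999, and the value was 0.29 without deprived array 1 and 0.036 without deprived array 2.

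Laptm5 had signals of 933.2 and 991.2 on the deprived and 1106.3 and 950.8 on the non-deprived arrays at its brighter probe set. The groups overlapped, and the log2 fold change was -0.088 ± 0.19 (SE). The dimmer Laptm5 probe set gave 684.5 and 831.3 on the deprived and 559.2 and 757.4 on the non-deprived arrays, with a log2 fold change of 0.20 ± 0.23 (SE). The 2 sets differed in sign, and neither interval left out 0. The letter f in the second identifier marks a set whose probes can match a family of sequences.

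Aif1 was the 1 member not tested. Its signals were 113.9 and 49.8 on the deprived and 83.5 and 42.9 on the non-deprived arrays, all under the filter of 142.9. The next dimmest member probe set, that of Tyrobp, had a mean signal of 315.2. In a fit without the filter Aif1 gave 0.18 ± 0.48 (SE), with an interval from -0.85 to 1.21, so the array gave little information on this standard microglia marker.

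The pairs of arrays show how far a single array set these values. Each deprived array was set against each non-deprived one, and a rule that asked for a 1.5-fold difference of 1 sign in all 4 of these pairs found 0 of the 11 tested member probe sets, against 1.9% of all tested probe sets. The dimmer Csf1r probe set was lower in all 4 pairs, by 0.64 and 1.02 in the same-numbered pairs and by 0.33 and 1.32 in the crossed pairs (log2). Ctss was higher in all 4, by 0.020 to 0.31. The other 9 tested probe sets had pairs of both signs. The median over the 8 tested member genes was 0.017 and 0.051 in the same-numbered pairs and -0.059 and 0.013 in the crossed pairs. For 6 of the 12 probe sets array 1 was above array 2 in both groups, among them Tyrobp, Aif1, the dimmer C1qb and both Csf1r probe sets, and for 3 it was below in both; over all tested probe sets these shares were 32.3% and 27.9%.

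**Figure D3:**
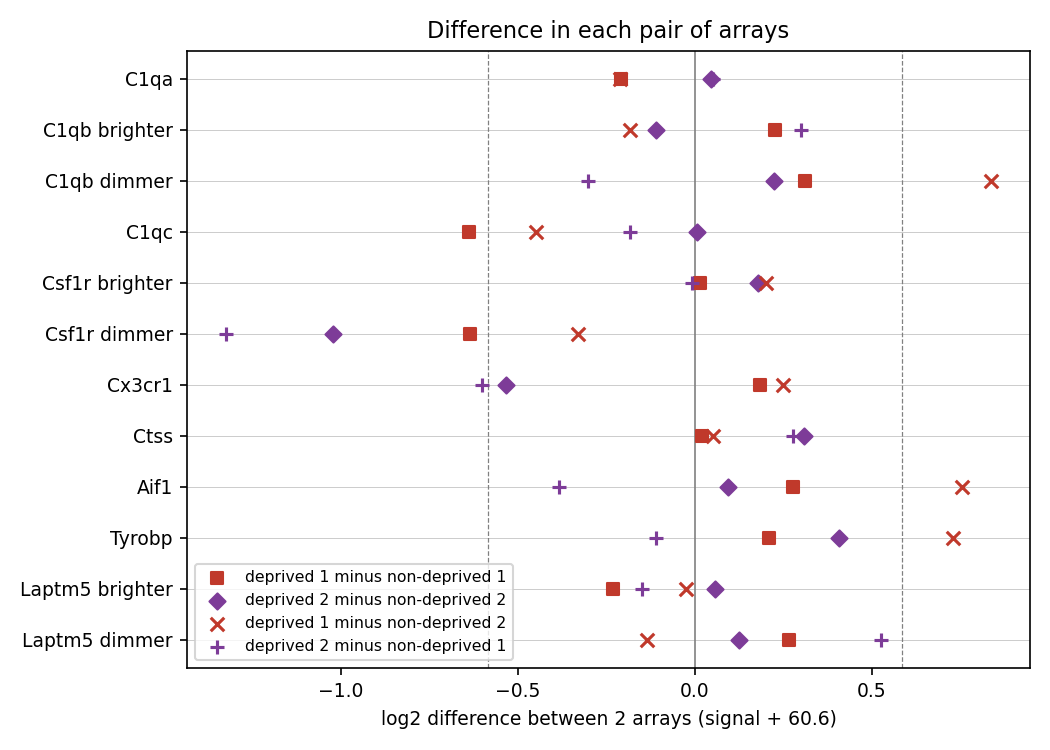
Log2 difference (horizontal axis) between each deprived and each non-deprived array for the 12 microglia and complement probe sets; squares and diamonds are same-numbered arrays, crosses and plus signs the crossed pairs, and dashed lines mark a 1.5-fold difference. The dimmer Csf1r probe set has all 4 marks below 0 and Ctss all 4 above 0.

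Further microglia markers were counted in the same way. Of 42 listed, 29 had a probe set of their own and 19 were bright enough to test; 9 were lower and 10 higher, with a median of 0.058 and a range from -0.56 to 0.70, and 0 passed in limma, with 0 at an unadjusted p under 0.05. Irf8, a transcription factor of microglia and other myeloid cells, gave 0.70 ± 0.49 (SE), with signals of 300.2 and 237.9 on the deprived and 79.4 and 231.1 on the non-deprived arrays. Selplg, a selectin ligand, gave -0.29 ± 0.20. Both had an adjusted p of 0.999. Cd68, a lysosomal protein of phagocytes, gave -0.005 ± 0.36 at its tested probe set. Itgam and Itgb2, whose products form complement receptor 3 on microglia, were too dim to test, with mean signals of 46.4 and 86.1. Fcer1g, an adaptor related to Tyrobp, was likewise too dim, with mean signals of 68.6 and 35.5 at its 2 probe sets. No probe set named Trem2, P2ry12 or Tmem119 alone.

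Complement genes beyond C1q could be followed only in part. Of 41 listed, 29 had a probe set of their own and 11 were tested; 4 were lower and 7 higher, with a median of 0.056, and 0 passed in limma, with 0 at an unadjusted p under 0.05. C1ra, a protease that acts with C1q, gave 0.73 ± 0.46 (SE) at a probe set of the f kind. There deprived array 1 stood at 476.5 and the other 3 arrays between 139.4 and 187.8. Vtn, encoding vitronectin, an inhibitor of the terminal complex, gave 0.51 ± 0.29. Serping1, the C1 inhibitor gene, gave -0.53 ± 0.50, with mean signals of 167.8 ± 98.1 on the deprived side and 266.5 ± 131.9 on the other (SD, n = 2 each). Clu, encoding clusterin, another inhibitor of the terminal complex, gave 0.072 ± 0.17 and 0.27 ± 0.17 at its 2 probe sets. Of the components downstream of C1q, C3 and C4b had no probe set that named them alone, and those of Hc, which encodes C5, and C9 were too dim to test. C2, added outside the rule for named genes after its value was seen, was tested and gave 0.056 ± 0.44 (SE), with an adjusted p of 0.999.

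Ligands and signalling partners of the member receptors gave 7 lower and 3 higher values among 10 genes tested, with -0.22 as the median, and 0 passed in limma, with 1 at an unadjusted p under 0.05. That gene was Grb2, an adaptor of Csf1r and of many other receptors, at -0.69 ± 0.18 (SE) with an adjusted p of 0.378, and 0.0801 with the replicate number as a block. Its mean signals were 1251 ± 25.6 on the deprived side and 2074 ± 357.1 on the other (SD, n = 2 each).

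Csf1, a ligand of Csf1r, had signals of 96.2 (array 1) and 704.1 (array 2) in the deprived group, against 631.4 and 571.3 in the non-deprived group. Deprived array 1 alone was low, and the log2 fold change of -0.93 ± 0.55 (SE) had an adjusted p of 0.984. It turned to 0.21 without deprived array 1, and was -2.08 with an adjusted p of 0.00411 without deprived array 2, a fit that assumes the same spread for the remaining deprived array as for the non-deprived pair. Cx3cl1, the fractalkine gene and ligand of Cx3cr1, was also low on deprived array 1 alone, with signals of 11597.6 and 17359.3 on the deprived and 17416 and 17269.3 on the non-deprived arrays. It gave -0.29 ± 0.24 at this probe set, 0.001 without deprived array 1, and 0.12 ± 0.33 at its dimmer probe set. Syk, the kinase downstream of Tyrobp, gave -0.21 ± 0.24 at its tested probe set. Cd200, a neuronal ligand that restrains microglia, gave 0.42 ± 0.23, with an adjusted p of 0.97. No probe set named Il34 alone.

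Cathepsins and other lysosomal genes, among which Ctss acts, gave 15 higher and 7 lower values among 22 genes tested, with 0.089 as the median, and 0 passed in limma, with 0 at an unadjusted p under 0.05. Laptm4b, a relative of Laptm5, gave 0.34 ± 0.17 (SE) and Ctsa, cathepsin A, 0.31 ± 0.21, with adjusted p of 0.941 and 0.991. Cst3, an inhibitor of cathepsins, gave 0.13 ± 0.22 at the brighter of its probe sets and -0.052 ± 0.31 at the dimmer one. Many of these genes are expressed by neurons and astrocytes as well.

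Genes of microglial activation were mostly too dim on this array. Of 26 listed, 21 had a probe set of their own and 5 passed the filter, with a median of -0.17, and 0 were called in limma, with 0 at an unadjusted p under 0.05. The cytokine and chemokine genes Il1a, Il1b, Tnf, Il6, Ccl2, Ccl3, Ccl4, Ccl5, Ccl7, Ccl12 and Cxcl10 all had mean signals under the filter at every probe set that named them.

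Markers of other blood-derived cells were few above the filter, with 4 of 16 for other myeloid cells and 5 of 11 for lymphocytes. Their medians were -0.27 and -0.19, and 0 genes of either list passed in limma, with 0 and 1 at an unadjusted p under 0.05. The latter was Cd4, a T cell and macrophage receptor, at -0.90 ± 0.36 (SE) with an adjusted p of 0.83. The value was -0.31 without deprived array 1 and -1.48 without deprived array 2. The summed signal of the 4 myeloid genes was 1181.7 and 954.9 on the deprived and 1496.2 and 1034.5 on the non-deprived arrays, and that of the 8 member genes 7098 and 7702 on the deprived and 7782.5 and 7305 on the non-deprived arrays. For both sums the groups overlapped. Of 13 neuron genes 10 were lower in the deprived cortex, with a median of -0.25, and 0 passed in limma, with 3 at an unadjusted p under 0.05, all of them lower. Among these 3 was Map2, a microtubule protein of dendrites, at -1.79 ± 0.39 (SE) with an adjusted p of 0.199. Its signals were 85 and 119.6 on the deprived arrays, both under the filter, and 413.4 and 604.8 on the non-deprived ones. Its mean signal of 305.7 thus passed the filter through the non-deprived arrays alone. The log2 fold change of Map2 was -1.399 with the 40th percentile added and -2.141 with 16 signal units added. Its size thus depended on the value added. In limma Map2 passed with the replicate number as a block (adjusted p = 0.0367). It did not pass after quantile normalization (adjusted p = 0.373) or without the variance trend (adjusted p = 0.729). For the fits with 1 array left out only the size is given here, and the log2 fold change of Map2 ranged from -1.55 to -2.04. Of 10 astrocyte genes 8 were lower, with a median of -0.059, and 0 passed, with 1 lower at an unadjusted p under 0.05. That gene, the glutamate transporter gene Slc1a2, gave -0.997 ± 0.33 (SE), with an adjusted p of 0.584. Its value was -1.41 without deprived array 1 and -0.59 without deprived array 2. Of 7 myelin genes 5 were higher, with a median of 0.14, and 0 passed, with 1 higher at an unadjusted p under 0.05. Of 5 genes of vessels 3 were lower, with a median of -0.097, and 0 passed, with 0 at an unadjusted p under 0.05. The 3 red blood cell genes had a median of 0.14, but their medians in single pairs of arrays ran from -0.86 to 1.02.

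**Figure D4:**
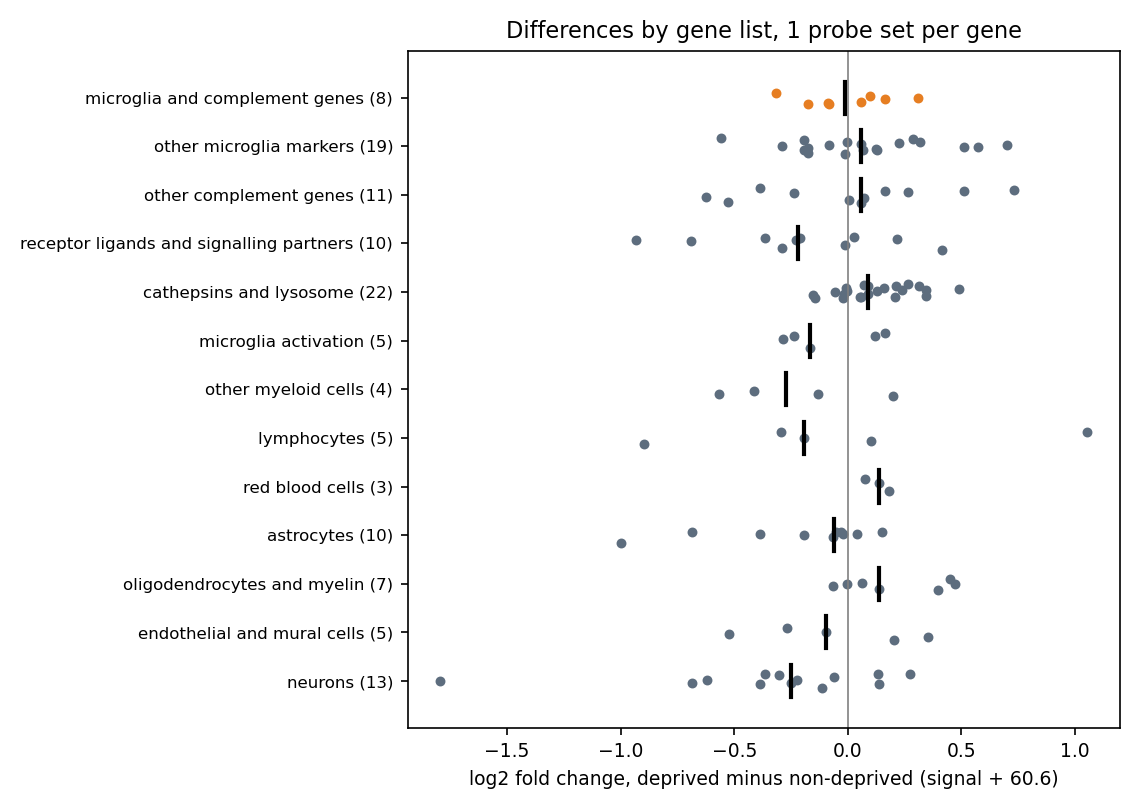
Log2 fold change of deprived against non-deprived cortex (horizontal axis) for each tested gene, 1 probe set per gene, by gene list, with the number of genes in brackets and the list median as a black bar; vertical jitter has no meaning. The 8 microglia and complement genes lie between -0.32 and 0.31 around a median of -0.012.

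The precision of the members can be read from their intervals. In the main fit the 95% interval lay within 1.5-fold in either direction for 5 of the 11 tested probe sets, and within 2-fold for 8. The other 3 were the dimmer C1qb and Csf1r probe sets and Tyrobp. Leaving aside the dimmer Csf1r probe set, no interval reached below 0.564 times or above 2.09 times the non-deprived level. These widths depended on the scaling. In the main fit the SE was 0.186 for C1qa, 0.189 for the brighter Csf1r probe set and 0.181 for Ctss. With a common median these were 0.315, 0.298 and 0.319, and after quantile normalization 0.163, 0.175 and 0.156. The bounds given here therefore hold for the main fit alone. In simulated data of this design, limma found 4.4% of the probe sets that had been shifted by 0.5 (log2), 44.7% of those shifted by 1 and 83.1% of those shifted by 2. Each size, up to 3, was given to 1000 probe sets over 20 runs, whereas 8 real probe sets passed. The adjustment is less strict where more probe sets differ, so these shares may overstate what would be found for a member. Even by these shares, most differences of the smallest of these sizes would not be detectable with 4 arrays.

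**Figure D5:**
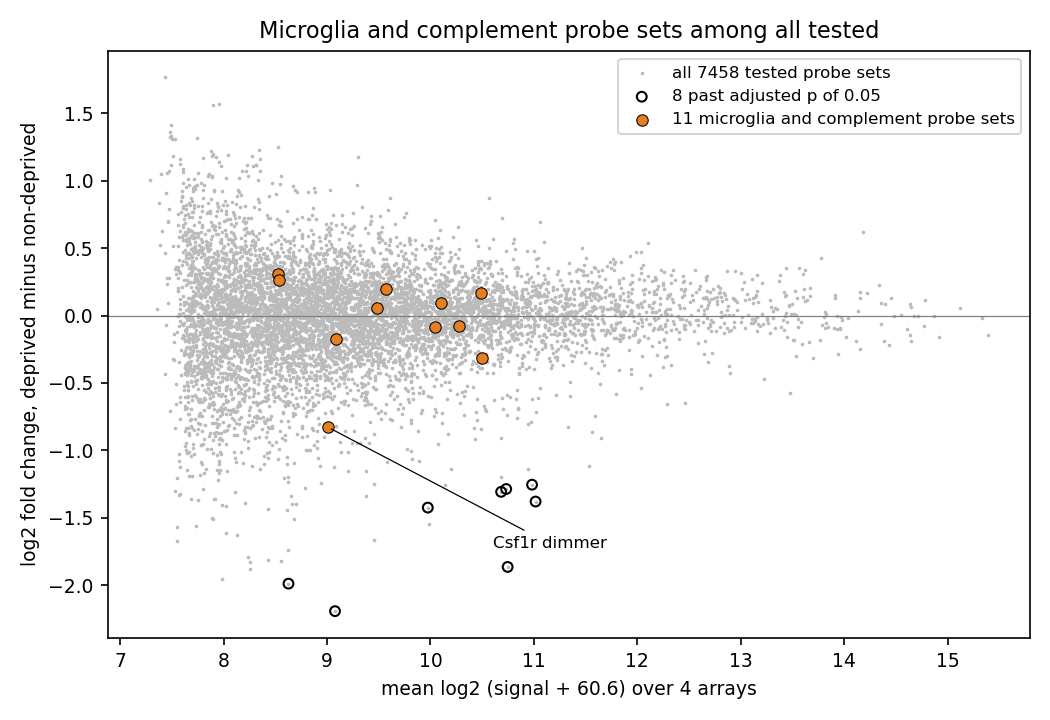
Log2 fold change of deprived against non-deprived cortex (vertical axis) against the mean log2 signal (horizontal axis) for all 7458 tested probe sets (grey), the 8 past an adjusted p of 0.05 (open circles) and the 11 microglia and complement probe sets (orange). All but the dimmer Csf1r probe set lie between -0.32 and 0.31, within the bulk of probe sets of like signal.

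The 4 arrays cannot say which other genes follow the members. The mean profile of the 8 tested member genes, each centred on its own mean, had an SD of only 0.04 on the log2 scale over the 4 arrays. Of 6697 other tested probe sets that name 1 gene, 3.18% had a Pearson r of at least 0.9 with it, and the highest were Bcl2l2, Qsox1, AI413582, Sap30l and Timd2, with r from 0.9964 to 0.9997 over 4 arrays. These are given as a description only.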

How the data were processed

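The deposited values are single-colour array intensities, 1 MAS5 signal per probe set, which the authors made with MAS5 per the submitters' processing notes; of its version, detection calls and scaling target nothing was given in the sources used here. About 10 µg of total RNA per sample had been labelled with biotin, per the labels' protocols. Each array was scaled to a 2% trimmed mean of 500.3 (the arrays already agreed closely), 60.6, the 20th percentile of mean signals, was added, and log2 was taken. The 66 control probe sets and those with a mean signal under 142.9, the 40th percentile, were left out, leaving 7458. limma 3.58.1 in R 4.3.3 (lmFit, eBayes with a variance trend) compared the groups, two-sided, with Benjamini-Hochberg adjustment over all 7458 at 0.05; 2 residual degrees of freedom rose to 11.6 with the prior. An exact permutation test of 2 arrays against 2 cannot give a p under 0.333. The number of arrays limits the precision.

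Symbols came from the platform annotation: 10855 probe sets had 1 symbol, 396 several and 1237 none, and 10839 were updated through Entrez identifiers in the GRCm38.p6 RefSeq gene table. Lists use the brightest tested probe set of a gene. The members and lists were chosen with earlier results of these data known. Beyond the members, the rule named 15 partner genes, the 2 genes with the smallest p in each list and the 5 genes most like the members; genes of other cell types are given mainly as counts. Arrays with 1 number deviated together from their groups (r = 0.27 over probe sets), and the design text sets cross-animal comparisons apart from the others, so the numbers were read as pairing the arrays. The main fit did not use this pairing, so its p-values and intervals are unpaired. The pairing entered as the replicate block, an alternative fit. The fit was tested on simulated data in 20 runs (5.06% of calls false). Noise was drawn independently for each array, from a distribution of the kind the fit assumes. This share and the shares of shifted probe sets found therefore do not show the rates on the real arrays.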

Additional observations from a re-analysis of the deposited data

How the results depend on the processing

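No member probe set passed an adjusted p of 0.05 under any of the 12 alternative fits, nor 0.2 in the unaltered fit. Of 130 member values in those fits, 6 changed sign, all with 1 array left out. The median over member genes, -0.012, became 0.057 when no filter was set, 0.077 over all 12 unfiltered probe sets and -0.081 under the 60th-percentile filter, which change the members included, and -0.038 to 0.067 with 1 array left out. The member count for 1.5-fold in every pair, 0, became 1 at 1.2-fold, 1 in the same-numbered pairs alone, and 0 to 1 with 1 array left out, where fewer or looser conditions applied. Over the whole table the count of 8 became 27 at an adjusted p of 0.2, 1 after quantile normalization, 3 with a common median, 0 in limma without the variance trend (390 at an unadjusted p under 0.05), 40 with the replicate block and 5 to 90 with 1 array left out; the cause was not tested, other than for the looser threshold. The replicate block changed no call of a member; among the other named genes it moved only Map2 past the threshold. Scaling moved the median of all tested probe sets from 0.001 to at most 0.021. With 2 arrays a group, the dim Aif1, Itgam and cytokine probe sets say little.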
